A study of Homo sapiens with 40 samples.

Results

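The clustered protocadherin genes lie in 3 neighbouring groups on human chromosome 5, called alpha, beta and gamma. They were chosen by symbol (PCDHA, PCDHB, PCDHGA, PCDHGB or PCDHGC followed by a number or C), with pseudogenes left out, which gave 53 of the 60664 genes in the count table: 15 alpha, 16 beta and 22 gamma. In the GRCh38 coordinates of the table they span chr5:140786136-141512979, all on the plus strand. Total RNA was sequenced from 786-0, an established line of clear cell renal cell carcinoma, either SETD2 wild type (WT) or SETD2 knockout (KO). The SETD2 protein places the third methyl group on lysine 36 of histone H3. Control cells of each line were taken at day 0. Further cells of each line were treated with DAC at 100 nM, with BMN at 10 nM or with both drugs, and were taken at days 5, 16 and 26. DAC is decitabine, a cytosine analogue that traps DNA methyltransferases, and BMN is BMN673 (talazoparib), which blocks the repair enzyme PARP. The 20 groups of line, treatment and day had 2 libraries each, 40 in all. No untreated cells of a later day are analysed here, so time in culture and treatment cannot be told apart in a comparison with control. The labels do not say how the knockout was made, whether the KO cells are 1 clone, or whether the 2 libraries of a group came from separate cultures. The p-values therefore measure a spread between the 2 libraries of a group, estimated over all 20 groups together, which may be technical. The 2 libraries differed most in WT control (chi-square of their counts per degree of freedom 19.6) and least in WT BMN day 5 (1.65).

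Clustered protocadherins are cadherin-like adhesion proteins of the cell surface, best known from neurons, where each cell uses its own combination of them and the proteins of contacting membranes bind only matching partners. Each gene of the alpha and gamma groups has a large first exon of its own, which encodes the whole extracellular part, the membrane span and a short cytoplasmic stretch, and is spliced to constant exons that all genes of the group share. Beta genes lack constant exons. Each first exon has a promoter of its own, and most carry a conserved sequence element with the core CGCT. CTCF and cohesin bind at many of them and loop a chosen promoter to distant enhancers, while methylated promoters stay silent. The last genes of the alpha and gamma groups, PCDHAC1, PCDHAC2, PCDHGC3, PCDHGC4 and PCDHGC5, are the C-type genes, which are regulated apart from the others. In many cancers the clusters are known as a long domain of gained DNA methylation.

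The promoter sequences show how alike the members of a group are where transcription starts. Windows ran from 250 bases before to 50 bases after an annotated start (RefSeq, GRCh38.p14). They were found for 47 of the 53 members, 52 windows in all. Each was searched on both strands for 3 words of 9 letters that hold the CGCT core. Each word was picked as the most frequent 9-letter word in its own group's windows outside the C-type genes. A high share within the group follows from that choice, so the shares are a description. The word GATGTCGCT was in 9 of 11 alpha members that are not C-type and in 0.105% of 35116 promoter windows of all genes. GGTGGCGCT was in 13 of 14 beta members (0.501% of all windows), and GCGCCGCTG in 10 of 18 gamma members that are not C-type (1.28% of all windows). None of the 3 words was in a C-type window, but C-type windows were left out when the words were picked. The bare core CGCT was in 70.01% of all windows. 6 windows are given because their genes carry the results: PCDHA4 for the alpha genes, of which none passed the filter on counts, PCDHB2 for the member with the lowest adjusted p between the lines, PCDHGB4, PCDHGB5 and PCDHGA11 for gamma genes that rose under DAC, and PCDHGC3 for the most abundant member. Capitals mark the group's word, and in PCDHGC3 the core CGCT on the printed strand.
PCDHA4: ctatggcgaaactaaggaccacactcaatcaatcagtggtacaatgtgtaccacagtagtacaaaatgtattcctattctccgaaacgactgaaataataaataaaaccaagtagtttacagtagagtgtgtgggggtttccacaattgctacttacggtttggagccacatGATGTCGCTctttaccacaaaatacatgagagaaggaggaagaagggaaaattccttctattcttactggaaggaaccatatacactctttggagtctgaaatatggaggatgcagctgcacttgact
PCDHB2: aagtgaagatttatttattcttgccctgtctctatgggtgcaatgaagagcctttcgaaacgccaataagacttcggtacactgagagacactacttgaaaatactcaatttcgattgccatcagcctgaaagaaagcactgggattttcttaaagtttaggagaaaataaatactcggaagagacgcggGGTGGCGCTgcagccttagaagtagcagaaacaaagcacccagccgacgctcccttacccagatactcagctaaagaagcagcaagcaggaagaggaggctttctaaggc
PCDHGB4: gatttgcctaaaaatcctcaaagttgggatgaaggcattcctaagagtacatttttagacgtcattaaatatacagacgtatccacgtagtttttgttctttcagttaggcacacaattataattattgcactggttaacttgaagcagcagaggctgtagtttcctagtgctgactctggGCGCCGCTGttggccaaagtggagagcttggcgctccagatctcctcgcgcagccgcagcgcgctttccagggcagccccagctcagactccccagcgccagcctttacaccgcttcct
PCDHGB5: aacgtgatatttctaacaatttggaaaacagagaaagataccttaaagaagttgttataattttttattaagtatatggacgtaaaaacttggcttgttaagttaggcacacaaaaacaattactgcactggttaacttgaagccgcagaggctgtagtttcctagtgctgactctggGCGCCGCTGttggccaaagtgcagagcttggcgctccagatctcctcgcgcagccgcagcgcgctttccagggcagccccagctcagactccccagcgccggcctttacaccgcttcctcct
PCDHGA11: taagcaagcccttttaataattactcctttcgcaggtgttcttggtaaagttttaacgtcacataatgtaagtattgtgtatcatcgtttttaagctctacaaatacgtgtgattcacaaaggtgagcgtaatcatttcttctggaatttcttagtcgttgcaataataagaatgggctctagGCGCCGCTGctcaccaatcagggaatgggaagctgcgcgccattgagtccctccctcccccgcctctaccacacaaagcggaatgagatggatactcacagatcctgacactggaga
PCDHGC3: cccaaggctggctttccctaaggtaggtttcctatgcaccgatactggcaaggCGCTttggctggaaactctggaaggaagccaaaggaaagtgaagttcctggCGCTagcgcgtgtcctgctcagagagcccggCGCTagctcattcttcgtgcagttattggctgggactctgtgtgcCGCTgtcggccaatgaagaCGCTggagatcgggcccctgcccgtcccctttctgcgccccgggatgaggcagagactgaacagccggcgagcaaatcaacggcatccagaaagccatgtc
The windows lie at chr5:140806818-140807117 (PCDHA4), chr5:141094365-141094664 (PCDHB2), chr5:141387448-141387747 (PCDHGB4), chr5:141397697-141397996 (PCDHGB5), chr5:141420801-141421100 (PCDHGA11) and chr5:141475716-141476015 (PCDHGC3), all on the plus strand. In the first 5 the word starts 78, 60, 69, 72 and 67 bases before the start site. CpG dinucleotides, the sites that DNA methyltransferases modify, numbered 3 to 9 in the alpha windows outside the C-type genes, 5 to 12 in the beta windows and 2 to 25 in the gamma windows outside the C-type genes (median 6.5 per gene, taking the window with most CpGs). The C-type windows held 27 (PCDHAC1), 15 (PCDHAC2), 18 (PCDHGC3) and, for the 2 windows of PCDHGC4, 23 and 24 CpGs, and the median over all promoter windows was 14. DNA methylation itself was not analysed here.

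Counts behind these genes were low for all but 1 member. Libraries held 17833960 to 22631101 counts, and 28 of the 53 members passed the filter on low counts and were tested: 0 alpha, 9 beta and 19 gamma. The 25 others reached at most 14 counts in any library. Counting could not assign a fragment lying wholly in exons that several genes share, so gamma and alpha values come from what a gene has to itself: for PCDHGC3 3251 of its 5430 annotated bases are exclusive, and for PCDHGB4 2459 of 6902. Some members also share sequence with each other outside the constant exons. In PCDHGB4 58% of 50-base words occur in another member and in PCDHGA8 36.9%. The annotated first exons of PCDHGB4 and PCDHGA8 overlap on the chromosome, which accounts for most of these words. A fragment wholly in that overlap could not be assigned to either gene. The share was 19.6% each in PCDHB13 and PCDHGB5, 14.8% in PCDHB2 and 9.92% in PCDHGA12. Part of the reads of all these genes may have been dropped for low mapping quality or assigned to a relative. The markers of kidney and renal carcinoma cells PAX8, PAX2, VIM, CDH6, KRT18 and KRT8 had counts in all 40 libraries, at levels that varied between libraries. PAX8 ran from 210 to 481 CPM, PAX2 from 7.28 to 92.9 and VIM from 2978 to 5430. CDH6 ran from 31.1 to 602 CPM, KRT18 from 58.5 to 240 and KRT8 from 223 to 582. Neuron markers summed to 14.06 to 36.5 CPM (counts scaled by library size) per library, with STMN2 at 0 in 38 libraries and ELAVL4 at 0 in 39. SETD2 mRNA was 113.5 to 179.9 CPM in WT and 107.6 to 160.5 CPM in KO libraries. These ranges overlap, and a count over the whole gene does not show whether the protein is made.

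The 15 alpha genes were nearly silent in every library. They drew 79 counts in all 40 libraries together, 0 to 10 per library with a median of 1.5, and the highest count of a single gene in a single library was 5. In 16 libraries no alpha gene had a count, and PCDHA8, PCDHA11 and PCDHA12 had none in any library. Of the 79 counts 70 were in the 24 libraries treated with DAC, alone or with BMN (46 in WT and 24 in KO), and 9 in the 16 libraries without DAC (9 in WT and 0 in KO). This split is a description, since no alpha gene was tested. A count of 0 allows up to 3 counts, which is 0.133 to 0.171 CPM across libraries and covers counting error only. A level below that can give a count of 0 at this depth. The heat map of all members by group shows the alpha rows at low levels in both lines, with and without DAC.

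**Figure D1:**
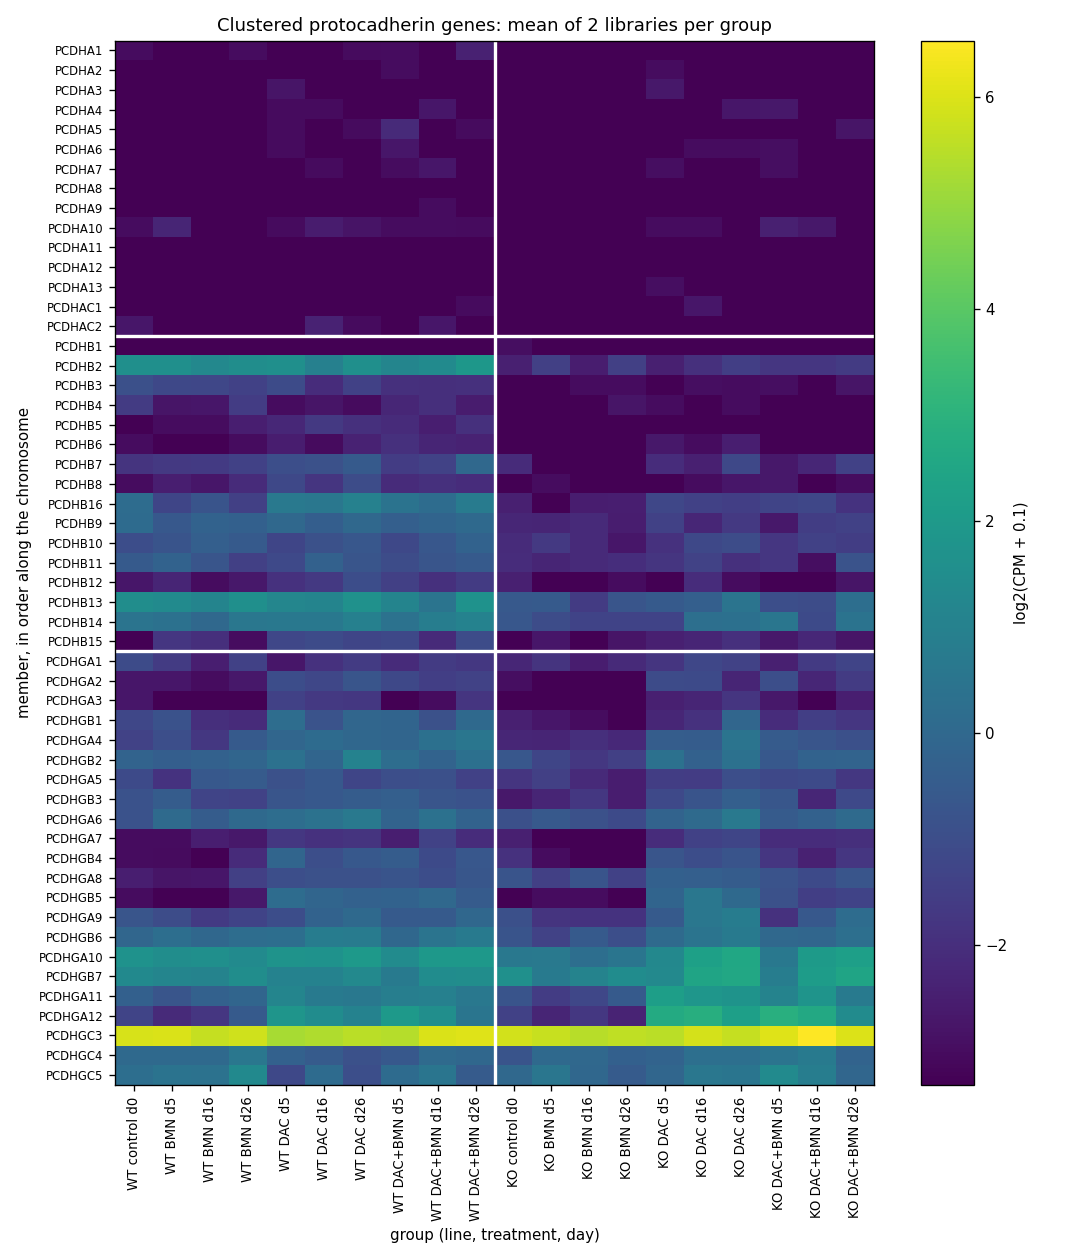
Mean of 2 libraries, as log2(CPM + 0.1), for the 53 members (rows, in chromosome order, white lines between alpha, beta and gamma) in the 20 groups (columns, WT left and KO right of the white line). PCDHGC3 is the bright row, the alpha block is dark throughout, and the beta block is darker in KO than in WT columns.

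PCDHGC3, a C-type gene that is expressed broadly rather than by choice of single cells, was far above all other members. It had 777 to 1710 counts per library, while no other member exceeded 152. Per kilobase of exclusive sequence its level in WT control cells was 18.8 ± 3.01 CPM (SD, n = 2), against 0.872 ± 0.108 for PCDHGB7, 0.709 ± 0.132 for PCDHGA10, 0.71 ± 0.0391 for PCDHB2 and 0.551 ± 0.0892 for PCDHB13. In KO control cells PCDHGC3 was at 17.7 ± 0.865 CPM per kilobase and PCDHGB7 at 1.08 ± 0.0118. With the whole annotated length in place of exclusive bases PCDHGC3 stood at 11.25 CPM per kilobase in WT control cells, and the order of PCDHGC3 above the other 4 was kept. All later levels are in CPM without length and compare a gene with itself.

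Most tested beta genes, adhesion genes without constant exons, were lower in KO than in WT control cells. Of the 9 tested, 6 passed an adjusted p of 0.05 and all 6 were lower (PCDHB2, PCDHB3, PCDHB16, PCDHB9, PCDHB13, PCDHB14). Over the whole cluster 8 members were lower and 1 was higher, where 13.9% of all 22527 genes tested were lower and 13.4% higher. The median log2 difference (KO minus WT) of the 28 tested members was -0.91, or -0.83 with genes at 0 set to their floor, against -0.01 over all genes. PCDHB2, PCDHB3 and PCDHB9 reached 10 counts only in WT libraries (at most 8, 2 and 7 counts in KO) and so passed the filter through those libraries. The filter tilts these counts and medians of the tested members toward lower in KO, so they are a description. In bulk RNA such as this, fewer expressing cells and less RNA per cell cannot be told apart.

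PCDHB2 had 3.02 and 2.80 CPM in the WT control libraries and 0 and 0.165 CPM in the KO control libraries. The groups did not overlap, and PCDHB2 was lower in KO (log2 -5.05, SE 0.55, adjusted p = 5.26e-09). Behind this are 114 counts in WT and 3 in KO, a ratio of 35.6 with a 95% counting interval of 11.9 to 175.2. PCDHB13 had 2.47 and 3.11 CPM in WT and 0.702 and 0.441 CPM in KO control cells (log2 -2.27, SE 0.45, adjusted p = 0.00018). PCDHB16 had 0.706 and 1.35 CPM against 0.108 and 0.0551 CPM (log2 -3.55, SE 0.81, adjusted p = 0.000896). For PCDHB16 these are 40 counts in WT and 3 in KO, a ratio of 12.5 (95% counting interval 3.98 to 63.1). PCDHB9 had 0.907 and 1.09 CPM in WT and 0.0540 and 0.165 CPM in KO, with an adjusted p of 0.000385. In each of these genes both WT libraries were above both KO libraries. PCDHB3, with 10 and 7 counts in WT and 0 in both KO libraries, was at least 2.65-fold lower in KO, taken against a floor of 3 counts per library. PCDHB14 had 1.46 and 1.14 CPM in WT and 0.702 and 0.386 CPM in KO (log2 -1.25, SE 0.44, adjusted p = 0.0318). Its call was lost without WT control replicate 1 or without KO control replicate 2. PCDHB7, PCDHB10 and PCDHB11 did not pass, with log2 differences of -0.38, -1.54 and -2.05.

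The low beta levels of the KO line were seen under the drugs as well. Over all 20 libraries of each line, the lowest PCDHB2 value in WT was 1.49 CPM (median 2.77, highest 4.15) and the highest in KO was 0.416 CPM (median 0.165, lowest 0), with no overlap. PCDHB9 did not overlap either, but the gap was narrow: the lowest WT library had 0.369 CPM and the highest KO library 0.357 CPM. The lines overlapped for PCDHB13 (WT 0.940 to 3.46 CPM, KO 0.151 to 1.43 CPM), PCDHB14 (0.566 to 2.30 and 0.202 to 1.49 CPM) and PCDHB16 (0.197 to 1.97 and 0 to 0.549 CPM). These ranges over treatments are a description with no test.

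**Figure D2:**
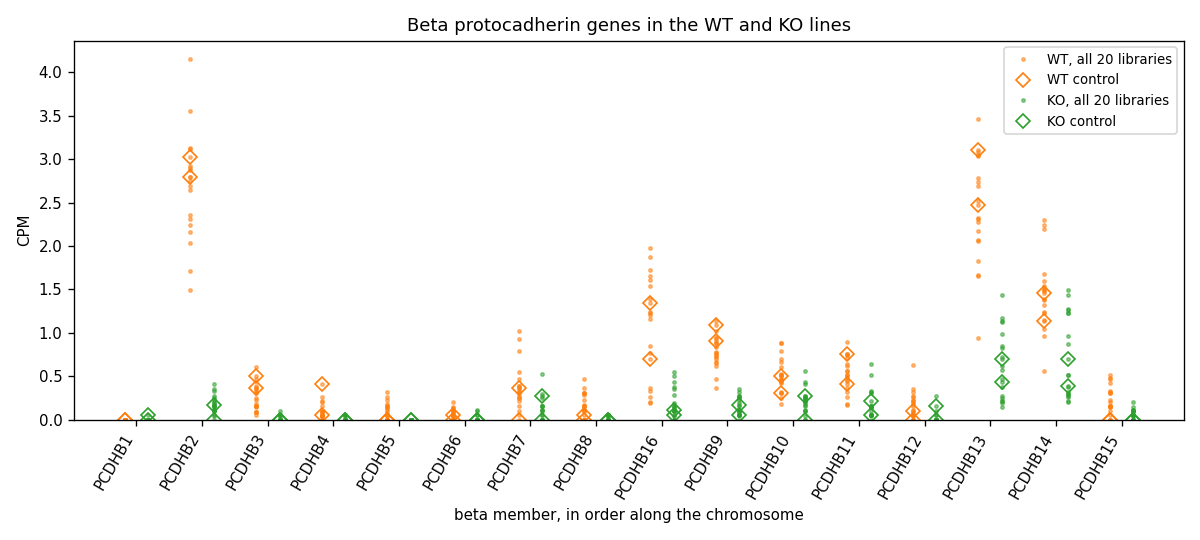
CPM of the 16 beta genes (horizontal axis, chromosome order) in the 20 WT libraries (orange) and 20 KO libraries (green), with diamonds for the 2 control libraries of each line. PCDHB2 lies between 1.49 and 4.15 CPM in WT and at or below 0.416 CPM in KO.

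In the gamma group 2 of 19 tested genes were lower and 1 was higher in KO than in WT control cells, where 13.9% of all genes tested were lower and 13.4% higher. PCDHGA10, one of the higher gamma genes, had 3.58 and 2.75 CPM in WT and 1.94 and 0.937 CPM in KO (log2 -1.13, SE 0.33, adjusted p = 0.00957). PCDHGB3 was also lower, with 11 and 7 counts in WT and 0 and 2 in KO, a ratio of 8.43 (95% counting interval 2.02 to 74.9). PCDHGA8 was higher in KO, with 1 and 2 counts in WT and 12 and 6 in KO, a ratio of 6.40 (1.87 to 33.9). Each of these 3 calls was lost when 1 of certain control libraries was left out: PCDHGA10 without WT control replicate 1 or KO control replicate 2, PCDHGB3 without WT control replicate 1 or KO control replicate 1, and PCDHGA8 without either WT control replicate or without KO control replicate 1. Without WT control replicate 1 the cluster held 5 lower members in place of 8.

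A set of gamma genes was higher under DAC than in control cells in both lines. At day 5 in WT cells 5 members were higher (PCDHGB4, PCDHGA8, PCDHGB5, PCDHGA11, PCDHGA12) and 2 lower (PCDHGC3, PCDHGC5), where 15.6% of all genes tested were higher and 12.2% lower. At day 5 in KO cells 5 were higher (PCDHGA2, PCDHGA4, PCDHGB5, PCDHGA11, PCDHGA12) and 1 lower (PCDHGC3), with 19.5% and 16% of all genes. These shares of the 28 tested members are near those of all genes. No beta gene passed at day 5 in either line. The median log2 change of the tested members was 0.23 in WT and 0.59 in KO, against 0.02 and 0.04 over all genes. PCDHGB4, PCDHGB5, PCDHGA2 and PCDHB7 reached 10 counts only in libraries with DAC and so passed the filter through those libraries. The filter tilts counts and medians of the tested members toward DAC for this reason, so they are a description.

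PCDHGA12, a gene known for promoter methylation in lung cancer, gave the clearest rise. Its level was 0.353 and 0.259 CPM in WT control libraries and 3.36 and 3.44 CPM at day 5 of DAC. In KO cells it was 0.270 and 0.276 CPM in control and 6.70 and 6.24 CPM at day 5. Both DAC libraries were above both control libraries in each line. The log2 changes were 3.44 (SE 0.40, adjusted p = 2.53e-08) in WT and 4.54 (SE 0.39, adjusted p = 1.79e-11) in KO, and both calls were kept in the 9 alternative fits made for each line.

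PCDHGA11, its neighbour in the cluster, rose from 0.605 and 0.829 CPM to 2.43 and 1.90 CPM in WT (log2 1.59, SE 0.35, adjusted p = 0.00055). In KO it rose from 0.270 and 0.716 CPM to 4.72 and 4.37 CPM (log2 3.19, SE 0.35, adjusted p = 4.06e-09). PCDHGB5, whose promoter window is printed above, had 0 and 1 counts in WT control and 22 and 19 counts at day 5, a ratio of 39.3 (95% counting interval 6.67 to 1589). In KO it had no count in either control library and 14 and 16 counts at day 5, at least 4.96-fold higher against the floor of 3 counts per library. PCDHGB4 had 0 and 1 counts in WT control and 15 and 19 counts at day 5 of DAC (ratio 32.6, interval 5.46 to 1324). PCDHGB4 and PCDHGB5 share many stretches with other gamma genes, so their low counts may hold reads of relatives.

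The other calls at day 5 were weaker. PCDHGA8 in WT passed at an adjusted p of 0.0478 and kept its call in 1 of 9 alternative fits: leaving out either replicate of the control or of the DAC group ended it, as did a replicate block, a term for the alignment name, a fit of only the libraries compared, and DESeq2. PCDHGA2 in KO passed at 0.0497, from 0 and 1 counts in control to 10 and 4 counts, and lost its call without either KO control replicate or without KO DAC day 5 replicate 1. PCDHGA4 in KO, at 0.109 CPM in control and 0.654 CPM at day 5 on average (adjusted p = 0.0299), lost its call without the same 3 libraries. The number of members higher in KO at day 5 was 3 without KO control replicate 2 or without KO DAC day 5 replicate 1, and 8 without KO DAC day 5 replicate 2.

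**Figure D3:**
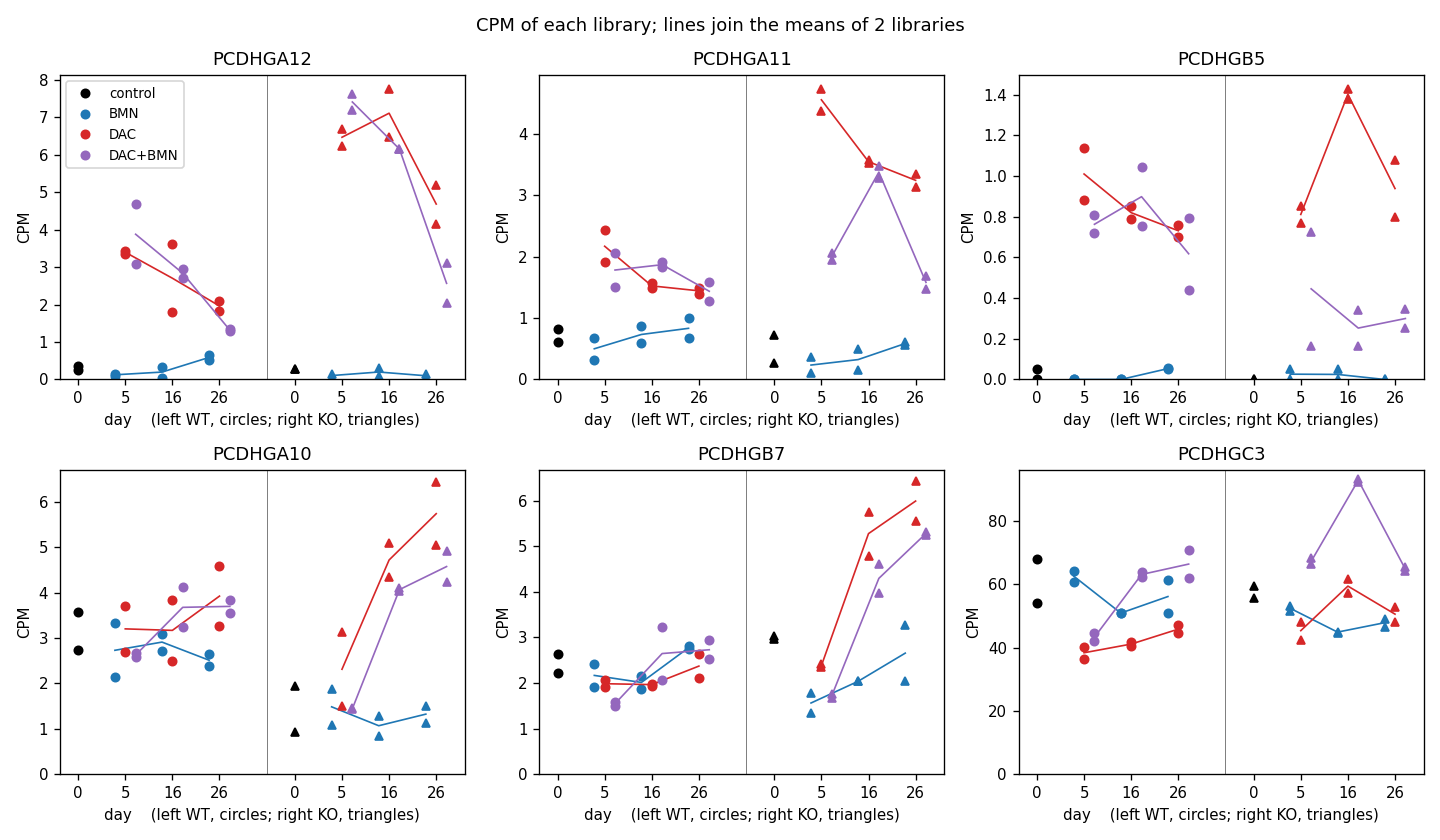
CPM of each library for 6 gamma genes by day, WT on the left (circles) and KO on the right (triangles) of each panel, with control in black, BMN blue, DAC red and DAC+BMN purple; points of the 3 treatments are shifted sideways and lines join means of 2 libraries. PCDHGA12, PCDHGA11 and PCDHGB5 stand above control and BMN under DAC in both lines, while PCDHGA10 and PCDHGB7 climb with day under DAC in KO.

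Later days gave further calls on gamma genes. In WT 7 members were higher and 1 lower at day 16 (18.6% and 14.9% of all genes), and 8 were higher and 3 lower at day 26 (18.7% and 13.2%). In KO 10 were higher and 0 lower at day 16 (19.9% and 17.8%), and 14 were higher and 0 lower at day 26 (26.3% and 20.9%). No member was lower in KO at these days at an unadjusted p below 0.05 in edgeR, nor with DESeq2. The median log2 change of the tested members in KO was 1.17 at day 16 and 1.58 at day 26 (1.10 and 1.52 with genes at 0 set to their floor), against 0.04 and 0.11 over all genes. These comparisons share the 2 control libraries of a line, so they are not independent of one another. The tilt of the filter toward DAC holds for these counts and medians as well.

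PCDHGA12 in WT had 3.61 and 1.80 CPM at day 16 and 1.82 and 2.11 CPM at day 26, and in KO 6.47 and 7.75 CPM and then 4.17 and 5.21 CPM. Its log2 change from control was 3.12 (SE 0.41, adjusted p = 2.04e-07) at day 16 and 2.66 (SE 0.43, adjusted p = 1.01e-05) at day 26 in WT, and 4.67 (SE 0.39, adjusted p = 4.91e-12) and 4.07 (SE 0.40, adjusted p = 4.5e-10) in KO. PCDHGA10 in KO had 5.10 and 4.34 CPM at day 16 and 6.43 and 5.05 CPM at day 26, against 1.94 and 0.937 CPM in control. PCDHGB7 in KO had 5.76 and 4.80 CPM and then 5.56 and 6.43 CPM, against 3.02 and 2.98 CPM in control. At day 26 the log2 changes were 1.99 (SE 0.31, adjusted p = 3.05e-06) for PCDHGA10 and 1.00 (SE 0.21, adjusted p = 0.000149) for PCDHGB7. In both genes each DAC library of days 16 and 26 was above both control libraries. PCDHB14 was the only beta gene called in KO at day 26, with 0.875 and 1.43 CPM against 0.702 and 0.386 CPM (adjusted p = 0.0489). The call was kept in 2 of 9 alternative fits, and was lost without KO control replicate 2, without KO DAC day 26 replicate 2, with no filter, with a replicate block, with a term for the alignment name, when only the libraries compared were fitted, and with DESeq2.

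The genes called in WT were PCDHGA4, PCDHGA6, PCDHGB4, PCDHGA8, PCDHGB5, PCDHGA11 and PCDHGA12 at day 16, and PCDHGA2, PCDHGB2, PCDHGA6, PCDHGB4, PCDHGA8, PCDHGB5, PCDHGA11 and PCDHGA12 at day 26. Of these only PCDHGB5 and PCDHGA12 kept their calls at both days whichever library was left out. In KO the genes called at day 16 were PCDHGA4, PCDHGB3, PCDHGB5, PCDHGA9, PCDHGB6, PCDHGA10, PCDHGB7, PCDHGA11, PCDHGA12 and PCDHGC4, of which 5 kept their calls whichever library was left out (PCDHGB5, PCDHGA10, PCDHGB7, PCDHGA11, PCDHGA12). At day 26 PCDHB14, PCDHGB1, PCDHGB2 and PCDHGA6 were called besides those 10, and 8 of the 14 kept their calls. PCDHGB5 in KO had 26 and 27 counts at day 16 and 21 and 15 at day 26, at least 8.57-fold and 5.74-fold above the floor for control. Without WT control replicate 1 only 2 members were higher at day 16, and 4 without either WT DAC day 16 replicate. At day 26 in WT 5 were higher without either WT control replicate and 3 without WT DAC day 26 replicate 1. In KO 6 members were higher at day 16 without KO control replicate 2.

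DAC at day 26 was also set against DAC at day 5, which uses no control library. In KO 5 members were higher at day 26 and 0 lower, with 18.1% of all genes higher and 17.8% lower. PCDHGB7 rose from 2.42 and 2.35 CPM to 5.56 and 6.43 CPM (log2 1.33, SE 0.21, adjusted p = 6.58e-06). PCDHGA10 rose from 3.13 and 1.49 CPM to 6.43 and 5.05 CPM (log2 1.31, SE 0.29, adjusted p = 0.000495), and PCDHB14 from 0.275 and 0.320 CPM to 0.875 and 1.43 CPM (log2 1.93, SE 0.50, adjusted p = 0.00272). None was lower at an unadjusted p below 0.05 or with DESeq2. PCDHGB1 and PCDHGA9 were the other 2, and PCDHGA10 and PCDHGB7 alone kept their calls whichever library was left out. PCDHB14 lost its call without KO DAC day 26 replicate 2. In all, 3 members were called without KO DAC day 5 replicate 2, and 3 without KO DAC day 26 replicate 2. In WT 1 member was higher (PCDHGC3, log2 0.26, SE 0.09, adjusted p = 0.0469) and 1 lower (PCDHGA12, log2 -0.79, SE 0.28, adjusted p = 0.0434), with 12.6% and 9.14% of all genes. Both calls were lost when any 1 of the 4 libraries was left out.

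Under BMN alone the called members were lower, 1 in WT and 4 in KO, shares of the 28 tested members that are near those of all genes. In WT, where the 6 BMN libraries of days 5, 16 and 26 were set against control, 0 members were higher (0 also at an unadjusted p below 0.05 in edgeR, and with DESeq2) and 1 lower, with 2.64% of all genes higher and 3.49% lower. That member was PCDHB16, with 0.197 to 0.771 CPM (median 0.298) in the BMN libraries and 0.706 and 1.35 CPM in control (log2 -1.56, SE 0.47, adjusted p = 0.0408). The call was lost in 6 of the 8 fits that left out 1 library, those without WT control replicate 2, without WT BMN day 16 replicate 1 and without any 1 of the BMN libraries of day 5 or day 26. In KO 0 members were higher and 4 lower (13.2% and 17.3% of all genes): PCDHB7, PCDHGB4, PCDHGB7 and PCDHGC3. At an unadjusted p below 0.05, 1 member was higher in edgeR, and 0 were called higher with DESeq2. PCDHGC3 had 44.7 to 53.3 CPM under BMN and 59.5 and 55.5 CPM in control (log2 -0.25, SE 0.07, adjusted p = 0.0092), and lost the call without KO control replicate 1. PCDHB7 rested on 5 counts in KO control replicate 1, with 0 in KO control replicate 2 and in every BMN library. PCDHGB4 had 1 and 5 counts in control and 1 count in the 6 BMN libraries, and lost its call without KO control replicate 2. PCDHGB7 had 1.35 to 3.28 CPM under BMN and 3.02 and 2.98 CPM in control (log2 -0.56, SE 0.19, adjusted p = 0.0216), and lost its call without either KO control replicate, KO BMN day 5 replicate 1 or KO BMN day 26 replicate 1. Without KO control replicate 1 only 1 of the 4 was called, and without KO control replicate 2 only 2.

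DAC against BMN on the same days set 6 libraries against 6 in each line, and here both arms had the same days of treatment. In WT 11 members were higher under DAC and 3 lower, with 23.3% of all genes higher and 19.4% lower. In KO 19 of the 28 tested members were higher and 0 lower, with 28.5% of all genes higher and 23% lower, and leaving out any 1 library gave 16 to 21. The median log2 difference of the tested members was 0.54 in WT and 1.43 in KO (1.17 with genes at 0 set to their floor), against -0.01 and 0.03 over all genes. PCDHGB5, PCDHGA2, PCDHGB4 and PCDHB7 reached 10 counts only in libraries with DAC (at most 1, 2, 5 and 8 counts without it) and so passed the filter through those libraries. The filter tilts the counts and medians of the tested members toward DAC for this reason, and they are given as a description. Of the beta genes PCDHB16 was called in WT, and PCDHB7, PCDHB16, PCDHB13 and PCDHB14 in KO. In KO no member was lower at an unadjusted p below 0.05 or with DESeq2, and 16 of the 19 kept their calls whichever library was left out. The exceptions were PCDHB13 (without KO DAC day 5 replicate 1, KO DAC day 16 replicate 2 or KO BMN day 26 replicate 2), PCDHGB1 (without KO DAC day 5 replicate 1) and PCDHGA8 (without KO DAC day 5 replicate 1, KO DAC day 16 replicate 1, KO DAC day 26 replicate 2, KO BMN day 16 replicate 1 or KO BMN day 26 replicate 1). In WT 8 of 11 kept theirs. The exceptions were PCDHGA4 (without WT DAC day 26 replicate 1), PCDHGA9 (without WT DAC day 5 replicate 1) and PCDHGB2 (without WT DAC day 5 replicate 1 or WT BMN day 5 replicate 2).

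In KO, PCDHGA12 had 0.0474 to 0.299 CPM in the BMN libraries and 4.17 to 7.75 CPM in the DAC libraries, with no overlap (log2 5.49, SE 0.26, adjusted p = 5.53e-19). In WT it had 0.0514 to 0.661 CPM under BMN and 1.80 to 3.61 CPM under DAC (log2 3.39, SE 0.26, adjusted p = 3.36e-13). PCDHGA11 had 0.104 to 0.616 CPM under BMN and 3.13 to 4.72 CPM under DAC in KO (log2 3.37, SE 0.22, adjusted p = 3.33e-15). In WT it had 0.316 to 0.992 and 1.39 to 2.43 CPM (log2 1.31, SE 0.21, adjusted p = 3.23e-06). PCDHGB5 had 2 counts in the 6 BMN libraries of each line, against 108 in the 6 DAC libraries of WT and 119 in those of KO. Its ratios were 50.1 (95% counting interval 13.6 to 419) and 62.9 (17.0 to 526). PCDHB16 in WT had 0.197 to 0.771 CPM under BMN and 1.16 to 1.97 CPM under DAC (log2 2.19, SE 0.33, adjusted p = 1.6e-06), again with no overlap.

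**Figure D4:**
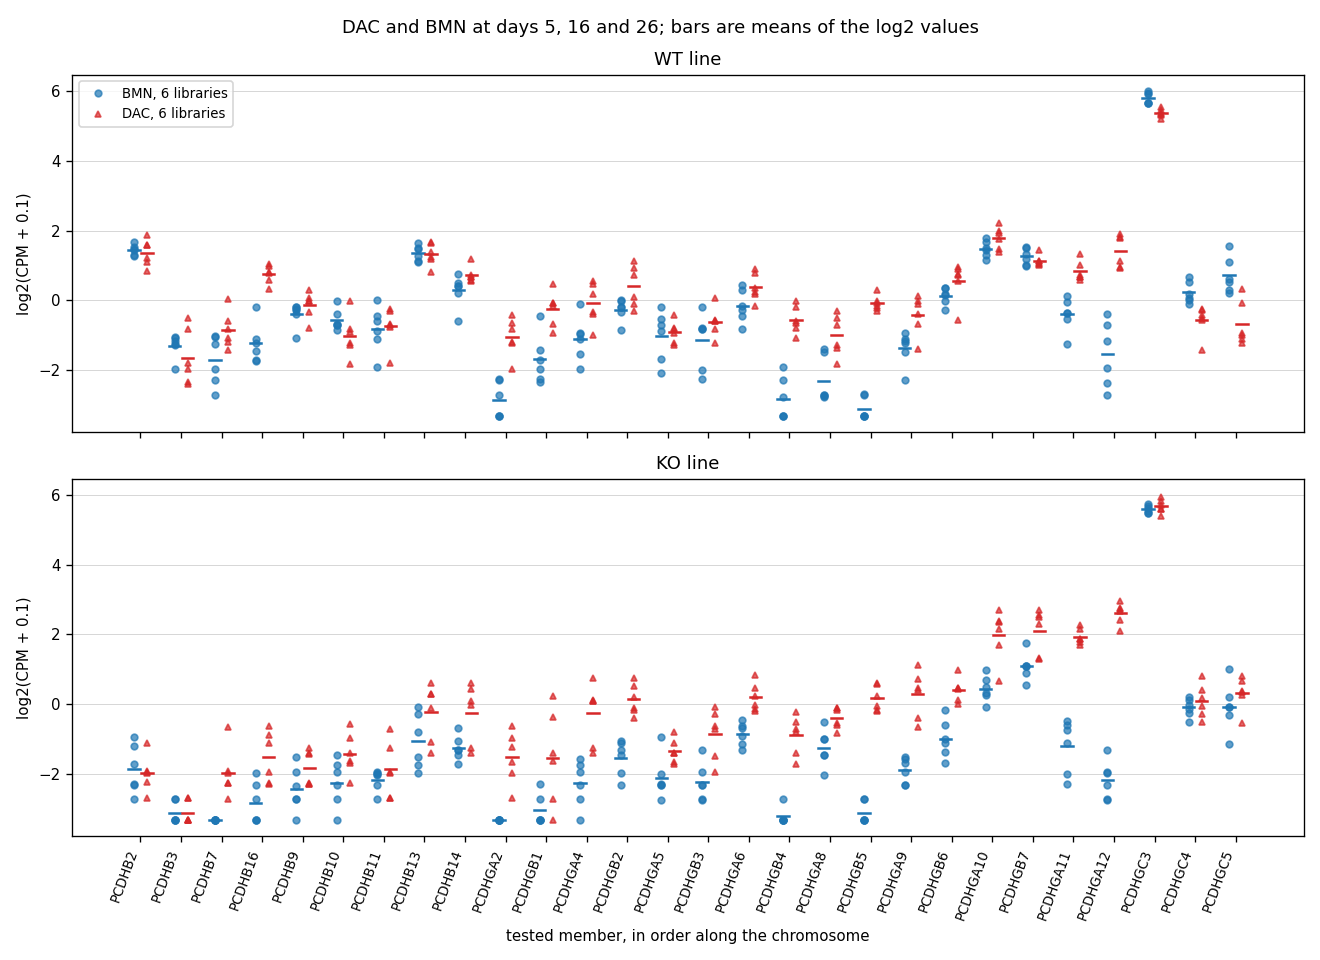
Levels of the 28 tested members, as log2(CPM + 0.1), in the 6 BMN libraries (blue circles) and 6 DAC libraries (red triangles) of days 5, 16 and 26, WT above and KO below; bars are means of the log2 values. In KO the DAC points of PCDHGA11, PCDHGA12 and PCDHGB5 lie above all BMN points, and PCDHGC3 overlaps.

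PCDHGC3 was lower under DAC in WT cells on all 3 days, and the other C-type gamma genes, PCDHGC4 and PCDHGC5, on some days. In WT PCDHGC3 had 54.2 and 68.0 CPM in control and 40.2 and 36.5 CPM at day 5 of DAC (log2 -0.67, SE 0.09, adjusted p = 6.8e-07). It remained lower at day 16 (41.6 and 40.5 CPM, adjusted p = 6.71e-06) and at day 26 (44.4 and 47.2 CPM, adjusted p = 0.000614), where the call was lost without WT control replicate 2. PCDHGC5 fell from 1.46 and 0.673 CPM to 0.362 and 0.325 CPM at day 5 in WT (log2 -1.63, SE 0.48, adjusted p = 0.0101), a call that was lost without WT control replicate 1 or WT DAC day 5 replicate 2. It did not pass at day 16 (1.16 and 0.853 CPM, adjusted p = 0.892). At day 26 it was lower, with 0.420 and 0.403 CPM (log2 -1.37, adjusted p = 0.0213), and lost the call without WT control replicate 1 or either WT DAC day 26 replicate. PCDHGC4 in WT had 1.01 and 0.880 CPM in control and 0.607 and 0.269 CPM at day 26 (log2 -1.11, SE 0.43, adjusted p = 0.0453), and lost the call without either control replicate or without WT DAC day 26 replicate 2. At days 5 and 16 PCDHGC4 did not pass (adjusted p = 0.563 and 0.249). Against BMN on the same days all 3 were lower in WT: PCDHGC3 by log2 -0.44 (SE 0.05, adjusted p = 2.71e-08), PCDHGC4 by -0.88 (SE 0.23, adjusted p = 0.00237) and PCDHGC5 by -1.55 (SE 0.25, adjusted p = 3.21e-06).

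In KO PCDHGC3 was lower at day 5 of DAC, with 48.2 and 42.5 CPM against 59.5 and 55.5 CPM (log2 -0.34, SE 0.09, adjusted p = 0.00369), and lost the call without KO control replicate 1 or KO DAC day 5 replicate 2. At days 16 and 26 it did not pass (adjusted p = 0.743 and 0.0958). PCDHGC4 in KO was higher at day 16 (0.603 and 1.63 CPM) and at day 26 (1.03 and 1.22 CPM) than in control (0.486 and 0.496 CPM), with adjusted p of 0.0251 and 0.0209. Both calls were lost without either KO control replicate, and without DAC replicate 2 of the same day. PCDHGC5 in KO had 1.10 and 0.587 CPM at day 5 of DAC and 0.809 and 0.992 CPM in control, with a log2 difference of -0.10 (SE 0.43, adjusted p = 0.894).

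Adding BMN to DAC raised PCDHGC3 in both lines. In WT 2 members were higher under DAC+BMN than under DAC and 0 lower (10.2% and 12.8% of all genes), over the 3 days, and none was lower at an unadjusted p below 0.05 or with DESeq2. PCDHGC3 had 44.5 and 42.0, 62.2 and 63.8, and 61.8 and 70.8 CPM at days 5, 16 and 26 of DAC+BMN (log2 0.44, SE 0.05, adjusted p = 5.76e-08). The second was PCDHGC5 (log2 0.83, SE 0.27, adjusted p = 0.0203), whose call was lost without WT DAC day 5 replicate 2, WT DAC day 16 replicate 2 or WT DAC+BMN day 26 replicate 2. In KO 1 member was higher and 4 lower (10.9% and 11.8% of all genes). PCDHGC3 had 68.1 and 66.2, 93.3 and 92.3, and 64.0 and 65.4 CPM at the 3 days, each above all 6 DAC libraries (log2 0.52, SE 0.05, adjusted p = 2.82e-09). PCDHGB5 had 0.164 to 0.725 CPM under DAC+BMN and 0.769 to 1.43 CPM under DAC, with no overlap (log2 -1.65, SE 0.32, adjusted p = 0.000259). PCDHGA11 had 1.48 to 3.47 against 3.13 to 4.72 CPM (log2 -0.76, SE 0.16, adjusted p = 0.000541). PCDHGA9 and PCDHGB4 were the other 2 lower members, and PCDHGB4 lost its call without KO DAC day 5 replicate 2, KO DAC day 16 replicate 1, KO DAC+BMN day 5 replicate 1, KO DAC+BMN day 16 replicate 1 or KO DAC+BMN day 26 replicate 2. PCDHGA12 did not pass in either line, with log2 differences of -0.11 in WT and -0.29 in KO.

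The response to DAC, as the log2 change from control averaged over the 3 days, was set between the lines. The difference of the signed changes (KO minus WT) was above 0 for 4 members and below 0 for 0 (0 also at an unadjusted p below 0.05 in edgeR, and with DESeq2), with 3.66% of all genes above and 5.17% below. These were PCDHGA10 (difference in log2 change 1.34, SE 0.37, adjusted p = 0.017), PCDHGA11 (1.69, SE 0.48, adjusted p = 0.0209), PCDHGC3 (0.39, SE 0.11, adjusted p = 0.0154) and PCDHGC4 (1.71, SE 0.49, adjusted p = 0.0222). No rise of PCDHGC3 under DAC was called in KO: its log2 changes at days 5, 16 and 26 were -0.67, -0.57 and -0.42 in WT and -0.34, 0.05 and -0.19 in KO, so its difference is that of a deeper fall in WT. For PCDHGA12 the difference was 1.35 (SE 0.69, adjusted p = 0.255), which did not pass, and for PCDHGB5 and PCDHB16 it did not pass either (adjusted p = 0.518 and 0.587). Each of the 4 calls rests on the 2 control libraries per line and was lost without at least 1 of them: PCDHGA10 without WT control replicate 1 or KO control replicate 2, PCDHGA11 without WT control replicate 2 or KO control replicate 1, PCDHGC3 without WT control replicate 2 or KO control replicate 2, and PCDHGC4 without WT control replicate 1 or either KO control replicate, and also without KO DAC day 16 replicate 2. Without KO control replicate 2 only 1 of the 4 differences was called.

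Markers of other cells moved with DAC too. The 4 fibroblast markers (PDGFRA, PDGFRB, DCN, LUM) summed to 6.15 to 6.58 CPM in WT control and 49.2 to 60.8 CPM in WT DAC libraries, and to 12.2 to 12.7 CPM and 60.7 to 90.7 CPM in KO. DCN was at 0 in 17 libraries and PDGFRA was at 0 in 33 libraries. The 7 blood and endothelial markers summed to 0.101 to 0.311 CPM in WT control, 0.789 to 1.93 CPM in WT DAC and 0.645 to 3.49 CPM in WT DAC+BMN libraries. In KO they summed to 0 to 0.0540 CPM in control, 0.514 to 1.10 CPM under DAC and 0.148 to 1.51 CPM under DAC+BMN, and under BMN to at most 0.206 CPM in WT and 0.199 CPM in KO. PTPRC was at 0 in 25 libraries. The 12 neuron markers summed to 14.06 to 17.9 CPM in WT control, 16.4 to 24.8 CPM in WT DAC, 18.5 to 19.2 CPM in KO control and 20.7 to 27.0 CPM in KO DAC libraries. The markers of kidney and renal carcinoma cells moved as well, mostly down. Of 7 tested, 2 were higher and 4 lower in WT at day 5 of DAC (median log2 -0.61). In KO 1 was higher and 5 lower (median log2 -0.69). Of all genes tested 15.6% were higher and 12.2% lower in WT, and 19.5% and 16% in KO. The part of these shifts in the gamma result was not tested.

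Genes around and related to the clusters were described by lists. The 6 pseudogenes of the cluster did not pass the filter. Of 38 neighbours within 500 kb of the members, 28 were tested: 4 were higher and 2 lower in WT at day 5 of DAC, and 3 and 4 in KO. Of all genes tested 15.6% were higher and 12.2% lower in WT, and 19.5% and 16% in KO, in that comparison. HBEGF, a growth factor gene, rose from 9.58 ± 0.294 CPM to 22.8 ± 1.91 CPM in WT (SD, n = 2; log2 1.25, adjusted p = 3.21e-11) and from 30.8 ± 2.78 to 77.8 ± 3.51 CPM in KO (log2 1.34, adjusted p = 8.77e-14). ZMAT2, a splicing factor gene, was lower in both (log2 -0.30 and -0.47, adjusted p = 0.0128 and 0.00013). Median log2 changes of the neighbours were 0.10 and 0.04.

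Of 12 protocadherin genes outside the clusters 6 were tested. In WT at day 5 of DAC 1 was higher and 1 lower, and in KO 1 was higher, and in DAC against BMN all 6 were higher in KO, while 3 were higher and 2 lower in WT. Of all genes tested 28.5% were higher in KO under DAC against BMN, and 23.3% were higher and 19.4% lower in WT. At day 5 the shares of all genes were 15.6% higher and 12.2% lower in WT, and 19.5% higher in KO. The median log2 change of the 6 at day 5 was 0.48 in WT (mean 1.20) and 0.29 in KO (mean 0.42), against medians of 0.02 and 0.04 over all genes. PCDH10, an adhesion gene often methylated in tumours, had 4.73 ± 0.489 CPM in WT control and 2.94 ± 0.155 CPM at day 5 of DAC (SD, n = 2; adjusted p = 0.0172), and PCDH7 in KO had 2.21 ± 0.380 and 4.06 ± 0.238 CPM (adjusted p = 0.00782).

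All 21 regulators of the cluster's chromatin were tested. At day 5 of DAC 3 were higher and 1 lower in WT, and 2 higher and 3 lower in KO, with 15.6% and 12.2% of all genes in WT and 19.5% and 16% in KO. CTCF, the factor that loops the promoters and named here after its values were seen, was at 78.1 CPM in WT control and 68.7 CPM at day 5 (adjusted p = 0.0669), and in KO it fell from 83.2 to 60.9 CPM (log2 -0.45, SE 0.08, adjusted p = 1.34e-05). DNMT3B, a de novo DNA methyltransferase, rose in WT, with 41.0 CPM in control and 67.1 CPM at day 5 (log2 0.71, SE 0.10, adjusted p = 3.74e-07), and rose in KO from 55.8 to 66.1 CPM (log2 0.24, SE 0.09, adjusted p = 0.0431). UHRF1, which brings maintenance methylation to replicated DNA, rose in WT (log2 0.48, SE 0.08, adjusted p = 8.47e-06) and was at 157.4 and 170.5 CPM in KO (adjusted p = 0.269). DNMT3A fell in KO from 8.50 to 4.51 CPM (log2 -0.92, SE 0.16, adjusted p = 2.39e-05) and in WT was at 18.9 and 17.9 CPM (adjusted p = 0.703). In control cells DNMT3A was lower in KO than in WT (log2 -1.15, SE 0.14, adjusted p = 3.45e-08). SETDB1, a histone H3 lysine 9 methyltransferase, fell in both lines (log2 -0.46 and -0.42, adjusted p = 1.58e-05 and 5.38e-05).

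All 19 genes for the cleavage and signalling of protocadherins were tested, of which 2 were higher and 5 lower in WT at day 5 of DAC, and 4 and 6 in KO. The shares of all genes were 15.6% higher and 12.2% lower in WT, and 19.5% and 16% in KO. ADAM10, the protease that sheds the extracellular part, fell in WT, with 512.6 CPM in control and 319.2 CPM at day 5 (log2 -0.68, SE 0.09, adjusted p = 1.04e-07), and fell in KO from 358.8 to 288.1 CPM (log2 -0.32, SE 0.09, adjusted p = 0.00379). APH1B, a gamma-secretase subunit, rose in both lines (log2 0.59 in WT and 1.46 in KO, adjusted p = 0.00416 and 1.02e-07). FYN, a kinase that acts with the cytoplasmic part, rose in both as well (log2 0.50 and 0.73, adjusted p = 0.0126 and 0.000171).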

How the data were processed

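RNA counts of 40 libraries from 786-0 cells were used. Per the file headers, the authors counted fragments per Ensembl 104 gene (GRCh38) with featureCounts 1.5.0-p1, by strand, with mapping quality of at least 20, leaving out duplicates and without counting a fragment for several genes; the deposited counts are not normalized. The submitters' processing notes also name FastQC, Trimmomatic and Partek. Genes passing edgeR's filter (minimum count 10, total 15; 22527 genes) were fitted over all 20 groups with edgeR 4.0.16 (TMM scaling, quasi-likelihood test, R 4.3.3), and p-values were adjusted by Benjamini-Hochberg over all genes tested, with a threshold of 0.05. CPM use TMM-scaled totals. Intervals of count ratios are exact at 95% and, like floors of 3 counts, cover counting error only. The code was tested on data simulated for WT DAC day 5 against control. Of genes with a mean under 50 counts, 1 of 34 changes of 1.5-fold was recovered. Of 2-fold changes 5 of 27 were recovered, and of 4-fold changes 11 of 25. There were 2 false calls among all genes. Most tested members have counts in that low range, so a member that did not pass may still differ. Members and lists were chosen with earlier results of these data known. Values per library are given for the 4 most abundant tested members of each group of genes, tested C-type members and the largest rise and fall per comparison; other members were named after their values were seen. Alternatives were DESeq2 1.42.0, no filter, only the libraries compared, a replicate block, a term for the ending of alignment names, and leaving out each library. 1 marker gene is not reported here.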

Additional observations from a re-analysis of the deposited data

Results flagged for a closer look

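The change under DAC differed between KO and WT, by the test of the difference itself, for 4 members. On the log2 scale the change from control, averaged over days 5, 16 and 26 and taken with its sign, was above that of WT in KO by 1.34 for PCDHGA10 (adjusted p = 0.017), by 1.69 for PCDHGA11 (adjusted p = 0.0209), by 0.391 for PCDHGC3 (adjusted p = 0.0154) and by 1.71 for PCDHGC4 (adjusted p = 0.0222). PCDHGC3 fell in WT on all 3 days, and no rise of it was called in KO. Of all genes tested 3.66% had a difference above 0 and 5.17% below 0 at this threshold. Each value uses the same 2 control libraries per line, and 0 of the 4 calls were kept whichever library was left out.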

How the results depend on the processing

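Without the filter on low counts, 9 members were higher in WT at day 5 of DAC in place of 5, 1 was lower in KO at day 26 in place of 0, 1 was lower in WT under DAC+BMN against DAC in place of 0, and 0 were higher in WT at day 26 against day 5 in place of 1. Fitting only the libraries compared left fewer residual degrees of freedom and took the spread from those libraries alone. Over all genes, WT DAC day 26 then gave 1544 higher and 484 lower (4216 and 2970 over all groups). KO DAC day 16 gave 4517 and 3868 (4484 and 4001). The chi-square per degree of freedom between the 2 libraries was 19.6 in WT control and 17.1 in WT DAC day 26. It was 7.62 in KO control and 3.52 in KO DAC day 16. Among the members, KO against WT control gave 0 higher and 5 lower (1 and 8 over all groups). WT DAC gave 1 lower at day 5 (2), 3 higher at day 16 (7) and 3 higher with 0 lower at day 26 (8 and 3). KO DAC gave 1 lower at day 26 (0). In the same fit WT BMN gave 0 lower (1), WT day 26 against day 5 gave 0 higher and 0 lower (1 and 1), KO DAC+BMN against DAC gave 7 lower (4), and the DAC response (KO minus WT) was above 0 for 1 member (4). DESeq2 gave 5 lower for KO against WT (8), 0 lower for WT BMN (1), 0 higher for WT day 26 against day 5 (1) and 2 lower for KO BMN (4). The cause of these shifts was not tested.

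Leaving out 1 library at a time gave these ranges. KO against WT control had 0 to 1 higher and 5 to 9 lower. WT DAC had 1 to 2 lower at day 5, 2 to 5 higher at day 16, and 3 to 7 higher with 1 to 2 lower at day 26. KO DAC had 3 to 8 higher with 0 to 1 lower at day 5, and 6 to 8 higher at day 16. WT BMN had 0 to 2 lower and KO BMN 1 to 5 lower. WT DAC+BMN against DAC had 1 to 2 higher. Day 26 against day 5 had 0 to 1 higher and 0 lower in WT, and 3 to 5 higher in KO. The DAC response (KO minus WT) was above 0 for 1 to 5 members. PCDHB7 under BMN in KO had a log2 change of 0 without KO control replicate 1 and -5.45 without KO control replicate 2.

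The replicate block moved no count by over 1.5 times (KO DAC against BMN gave 20 higher in place of 19) and lost 2 of 121 calls on single members. Same-numbered libraries did not deviate in a constant direction. Over 190 pairs of groups the correlation ran from -0.616 to 0.746 (median 0.0015), with 51 pairs over 0.1 and 48 under -0.1. The numbers were therefore not taken as pairs. Some groups did deviate together or in opposite ways, and the source of this was not tested. DESeq2 kept 103 of 117 calls, no filter 111 of 121, only the libraries compared 93 of 121, and the alignment-name term 117 of 121. The 25 members that were not tested reached at most 14 counts in any library. The filter left them out, so the main fit says nothing about differences in them.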
